A study of Mus musculus with 8 samples.

Results

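The genes described here encode 5 proteins through which bone-forming cells set the number and activity of osteoclasts, the cells that resorb bone. They are Tnfsf11 (RANKL), Tnfrsf11b (osteoprotegerin), Csf1, Il34 and Lgr4, and they were chosen by gene symbol. All 5 were present among the 21154 genes of the count table, and all 5 passed the filter on low counts that left 16547 genes to test. RNA came from sorted osteoblasts of female Col2.3-GFP mice, in which a fragment of the Col1a1 promoter drives green fluorescent protein in cells of the osteoblast lineage. Every mouse carried the reporter and was 8 to 10 weeks old when treatment began. The mice received 4 weekly intravenous injections of either phosphate-buffered saline (PBS, 3 libraries) or doxorubicin at 5 mg/kg (DOX, 5 libraries), and bone was taken 8 weeks after treatment. Doxorubicin is an anthracycline used in chemotherapy. The libraries fall into 2 labelled batches, the first with PBS replicate 1 beside DOX replicates 1 and 2, the second with the remaining 2 PBS and 3 DOX libraries. For DOX replicate 1 the title says doxorubicin but the treatment label says PBS, and each group difference is therefore also given, where it matters, without that library or with it moved to the PBS group.

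RANKL is a membrane-bound or shed cytokine that binds the receptor RANK (Tnfrsf11a) on osteoclast precursors and drives their fusion into osteoclasts. Osteoprotegerin is a secreted decoy receptor that binds RANKL and keeps it from RANK, so the balance of both sets the drive to resorption. Macrophage colony-stimulating factor (Csf1) and interleukin-34 (Il34) bind the same receptor, Csf1r, and keep osteoclast precursors alive and dividing. Lgr4 is a receptor for R-spondins in Wnt signalling, and it has also been described as a further receptor for RANKL.

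Library totals ran from 39419027 to 44299591 counts. Values are CPM, the read counts scaled to a common library size by the TMM method, which corrects for differences in library composition. All 11 osteoblast markers were detected in every library, with Col1a1, a chain of type I collagen, at the highest mean. Col1a1 and Col1a2 together ranged from 19.1% of counts (PBS replicate 1) to 39.5% (PBS replicate 2). The hemoglobin share was highest in PBS replicate 1 (0.0167%) and DOX replicate 1 (0.0120%), with 0.00283% or less in each remaining library. In bulk RNA, fewer cells of a type and less RNA per cell cannot be told apart.

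Over all 8 libraries the members kept nearly one order of level per kilobase of exon. Csf1 stood highest at 33.5 ± 11.3 CPM per kb (SD, n = 8), followed by Lgr4 at 17.8 ± 5.03 and Tnfrsf11b at 13.8 ± 10.5. Tnfsf11 stood at 4.11 ± 3.45 CPM per kb and Il34 at 0.331 ± 0.274. Tnfrsf11b exceeded Tnfsf11, and Tnfsf11 exceeded Il34, in 8 of 8 libraries. Lgr4 and Tnfrsf11b were closer to each other than their spread. Lgr4 lay above Csf1 in PBS replicate 3, and Tnfrsf11b lay above Lgr4 in PBS replicate 1. These libraries of sorted osteoblasts thus held far more transcript for the growth factor Csf1 than for Il34, which binds the same receptor. They also held more for the decoy than for RANKL.

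No member differed between DOX and PBS osteoblasts in the test across all genes. EdgeR's quasi-likelihood test with batch as a term called 0 of 16547 genes (0%), and the adjusted p of Tnfsf11, Tnfrsf11b, Csf1 and Lgr4 was 0.998. None of the 5 had an unadjusted p under 0.05, against 604 genes (3.65%) among all those tested, 2.02% higher and 1.63% lower in DOX. Limma-voom also called 0 genes, and DESeq2 called 26 (0.123%), none of them a member. The fold changes below come from the edgeR fit, with positive values where DOX was higher. For comparison, the median log2 fold change was 0.02 over all genes tested and -0.11 over the 5 members.

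**Figure D1:**
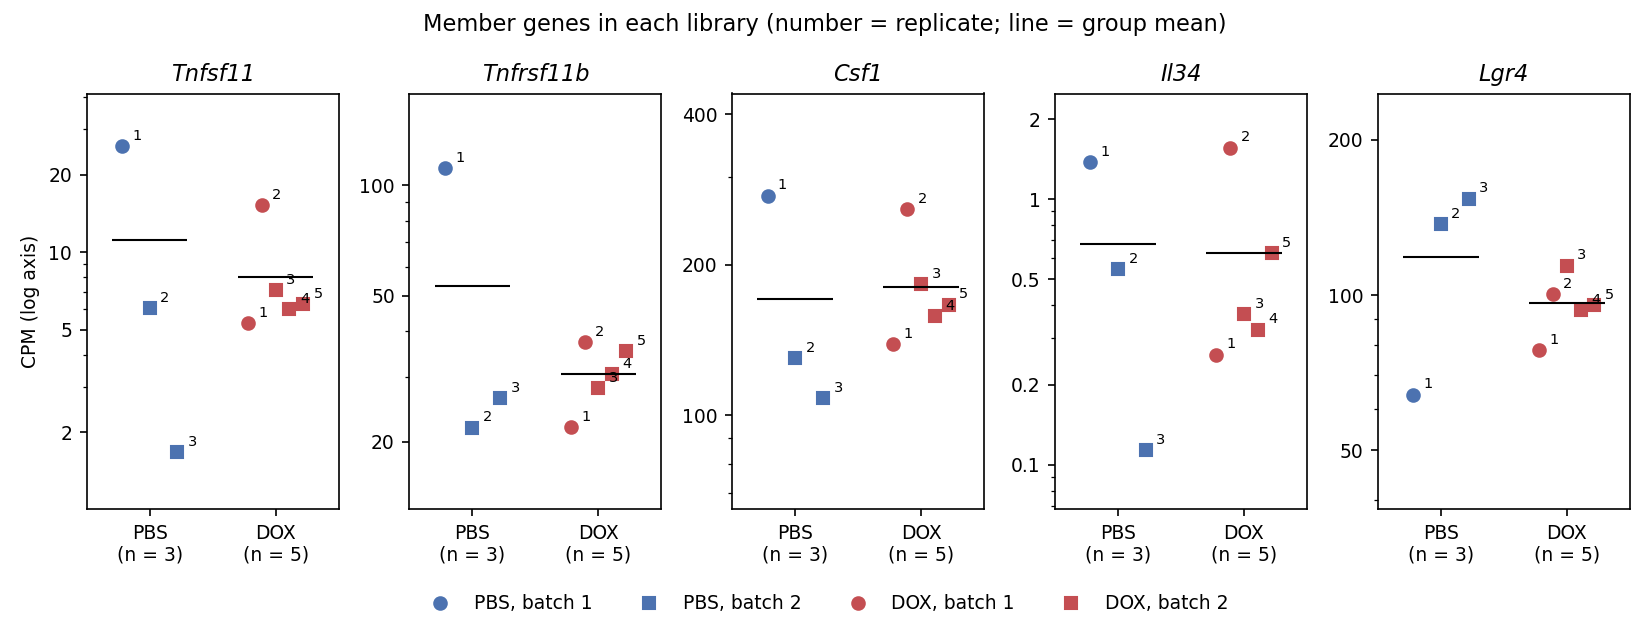
CPM of each member in each library, on a log axis with its own scale per gene. Points are libraries, labelled by replicate number and shaped by batch, and lines are group means (PBS, n = 3; DOX, n = 5). PBS replicate 1 is highest for Tnfsf11 (25.8 CPM), Tnfrsf11b (111) and Csf1 (275) and lowest for Lgr4 (64.1).

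Tnfsf11, which encodes the osteoclast-inducing ligand RANKL, varied most within the PBS group. It stood at 25.8, 6.05 and 1.67 CPM in PBS replicates 1 to 3, from 1382, 221 and 59 counts. In DOX replicates 1 to 5 it stood at 5.29, 15.2, 7.11, 6.03 and 6.29 CPM. The PBS libraries held both the highest and the lowest value, 15.4-fold apart, and all 5 DOX libraries lay between them. The 95% counting interval was 1.27 to 2.16 CPM in PBS replicate 3 and 24.5 to 27.2 CPM in PBS replicate 1. The log2 fold change was -0.11 ± 0.52 (SE), with a 95% interval of -1.28 to 1.06. Leaving out PBS replicate 1 gave 0.75, leaving out DOX replicate 1 gave 0.27, moving DOX replicate 1 to the PBS group gave 0.46 and leaving out PBS replicate 3 gave -0.67, so its direction rested on single libraries.

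Tnfrsf11b, the gene of the decoy receptor osteoprotegerin, was set apart by 1 library. It stood at 111 CPM in PBS replicate 1 and at 21.8 and 26.3 CPM in PBS replicates 2 and 3. DOX replicates 1 to 5 stood at 21.9, 37.3, 27.9, 30.6 and 35.2 CPM. PBS replicate 1 lay 2.98-fold above the next highest library, and the other 7 spanned only 21.8 to 37.3 CPM. The log2 fold change of -0.54 ± 0.40 (SE; 95% interval -1.43 to 0.35) became 0.39 when PBS replicate 1 was left out, -0.20 when DOX replicate 1 was left out and -0.038 when the latter was moved to the PBS group. The SD of log2 CPM over the libraries was 0.75 with all 8 and 0.30 without PBS replicate 1.

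The ratio of Tnfsf11 to Tnfrsf11b reads within a library needs no scaling between libraries. It was 0.233, 0.277 and 0.0638 in PBS replicates 1 to 3 and 0.241, 0.407, 0.255, 0.197 and 0.179 in DOX replicates 1 to 5. Reads of the decoy outnumbered those of the ligand in 8 of 8 libraries, by 2.46-fold in DOX replicate 2 and by 15.7-fold in PBS replicate 3. PBS replicate 1, which was highest for both genes, had a ratio between those of DOX replicate 1 and DOX replicate 4, with ligand and decoy both at their highest. The ratio was low in PBS replicate 3, where Tnfsf11 was low and Tnfrsf11b stood at 26.3 CPM. On the log2 scale the ratio averaged -2.64 ± 1.15 over the PBS libraries (SD, n = 3) against -2.03 ± 0.46 over the DOX libraries (SD, n = 5). The difference of 0.61 had an exact two-sided permutation p of 0.393, where the smallest p the 56 ways allow is 0.0179. Permutation within batches gave an exact p of 0.367, and the difference was 0.43 in batch 1 and 0.64 in batch 2. Without PBS replicate 3 the difference was -0.052, and without PBS replicate 2 it was 1.00.

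**Figure D2:**
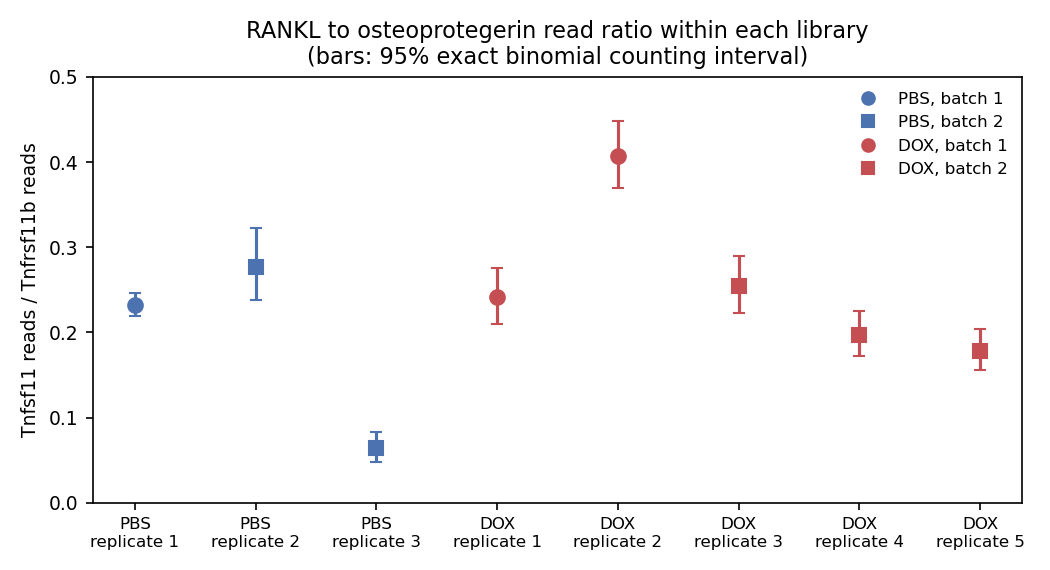
Tnfsf11 reads divided by Tnfrsf11b reads in each library, with 95% exact binomial intervals that cover counting error only. PBS replicate 3 (0.0638) and DOX replicate 2 (0.407) lie outside the range of 0.179 to 0.277 that holds the other 6 libraries.

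Csf1, the gene of macrophage colony-stimulating factor, was the most abundant member. It stood at 275, 130.1 and 108 CPM in PBS replicates 1 to 3 and at 139, 258, 183, 158 and 167 CPM in DOX replicates 1 to 5. As for Tnfsf11, all 5 DOX libraries lay between the lowest and the highest PBS library. The log2 fold change was 0.14 ± 0.24 (SE; 95% interval -0.39 to 0.66), and it was 0.51 without PBS replicate 1, 0.33 without DOX replicate 1, 0.44 with the latter moved to the PBS group, 0.065 without DOX replicate 2 and -0.052 without PBS replicate 3. Reads of Tnfsf11 per read of Csf1 came to between 0.0378 and 0.0389 in DOX replicates 1, 3, 4 and 5 and to 0.0589 in DOX replicate 2. In PBS replicates 1 to 3 they came to 0.0939, 0.0465 and 0.0155. A further 3 ratios between members were tested beside that of Tnfsf11 to Tnfrsf11b, and the smallest exact permutation p, 0.0893, was that of Tnfrsf11b to Csf1 (0.357 after Benjamini-Hochberg adjustment over the 4 ratios), with a difference of -0.58 on the log2 scale. That difference was -1.42 in batch 1 and -0.13 in batch 2, and it was -0.24 without PBS replicate 1 and -0.88 without PBS replicate 2 (unadjusted exact permutation p = 0.381 and 0.0476).

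Il34, the second ligand of Csf1r, was close to the limit of detection. Its counts were 74, 20 and 4 in PBS replicates 1 to 3 and 13, 63, 15, 14 and 26 in DOX replicates 1 to 5. These corresponded to 1.38, 0.547 and 0.114 CPM in PBS and to 0.260, 1.57, 0.370, 0.323 and 0.629 CPM in DOX. The highest values were in PBS replicate 1 and DOX replicate 2, whose 95% counting intervals overlapped, and the lowest was in PBS replicate 3. The log2 fold change was 0.01 ± 0.65 (SE), with a 95% interval of -1.43 to 1.44 and an adjusted p of 1.00 in edgeR. It was 0.33 without DOX replicate 1 and 0.61 with that library moved to the PBS group. Its direction was reversed without PBS replicate 3 (-0.46), DOX replicate 2 (-0.41) or DOX replicate 5 (-0.23).

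Lgr4 ran the other way across libraries. It stood at 64.1, 137 and 154 CPM in PBS replicates 1 to 3 and at 78.3, 101, 114, 93.3 and 95.7 CPM in DOX replicates 1 to 5. PBS replicate 1, the highest library for Tnfsf11 and Csf1, was the lowest for Lgr4, and PBS replicate 3, the lowest for Tnfsf11, Csf1 and Il34, was the highest. The log2 fold change was -0.19 ± 0.20 (SE; 95% interval -0.64 to 0.26). It was negative when any 1 library was left out, with extremes of -0.52 (PBS replicate 1 left out) and -0.040 (PBS replicate 3 left out).

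For Tnfsf11, Tnfrsf11b, Csf1 and Lgr4, every DOX library lay between the lowest and the highest PBS library, and for Il34 DOX replicate 2 lay above all PBS libraries. Among all genes tested, 17.1% had every DOX library inside the PBS range. No member had every DOX library above every PBS library (1.29% of genes tested) or below it (1.12%).

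Within the batches the difference between DOX and PBS took opposite signs for all 5 members, as it did for 56.5% of the genes tested. In batch 1, where the comparison rests on PBS replicate 1 alone, the difference in mean log2 CPM was -1.52 for Tnfsf11, -1.96 for Tnfrsf11b, -0.54 for Csf1, -1.02 for Il34 and 0.47 for Lgr4. In batch 2 it was 1.01, 0.38, 0.51, 0.61 and -0.53 in the same order. The interaction of batch and group was 2.298 ± 0.37 (SE) on the log2 scale for Tnfrsf11b, with an unadjusted p of 8.65e-05 and an adjusted p of 0.117 in edgeR. EdgeR called 0 of 18595 genes (0%) for this interaction and listed 1910 (10.3%) at an unadjusted p under 0.05. Tnfsf11 (2.09 ± 0.82, unadjusted p = 0.0290), Csf1 (0.99 ± 0.39, unadjusted p = 0.0290) and Lgr4 (-0.995 ± 0.28, unadjusted p = 0.00519) were also among these, and Il34 was not. DESeq2 called 269 genes (1.79%), with Tnfrsf11b (adjusted p = 5.40e-06) and Lgr4 (adjusted p = 0.0359) among them. In edgeR the adjusted p of Tnfrsf11b was 0.0393 without DOX replicate 1 and 0.0109 without DOX replicate 2, and that of Csf1 was 0.0310 without DOX replicate 2. Moving DOX replicate 1 to the PBS group gives batch 1 another PBS library, and the interaction of Tnfrsf11b was then 1.21 ± 0.84 (SE; adjusted p = 0.507 in edgeR). That of Tnfsf11 was 0.77, that of Csf1 0.18 and that of Lgr4 -1.03, with unadjusted p of 0.474, 0.671 and 0.00139 in edgeR.

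In batch 2 alone, all 3 DOX libraries lay above both PBS libraries for Tnfrsf11b and Csf1 and below both for Lgr4. Such a separation held for 15.7% of genes upwards and 14.5% downwards. EdgeR's log2 fold change in batch 2 was 0.51 ± 0.13 (SE) for Csf1 (adjusted p = 0.314), 0.39 ± 0.15 for Tnfrsf11b (0.351) and -0.52 ± 0.12 for Lgr4 (0.305). These 3 members had an unadjusted p under 0.05 there, as did 12.8% of the genes tested, and 0 genes (0%) passed after adjustment. Tnfsf11 differed by 0.75 ± 0.44 (SE; adjusted p = 0.501) and overlapped between the groups, since DOX replicate 4 (6.03 CPM) lay just below PBS replicate 2 (6.05 CPM).

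**Figure D3:**
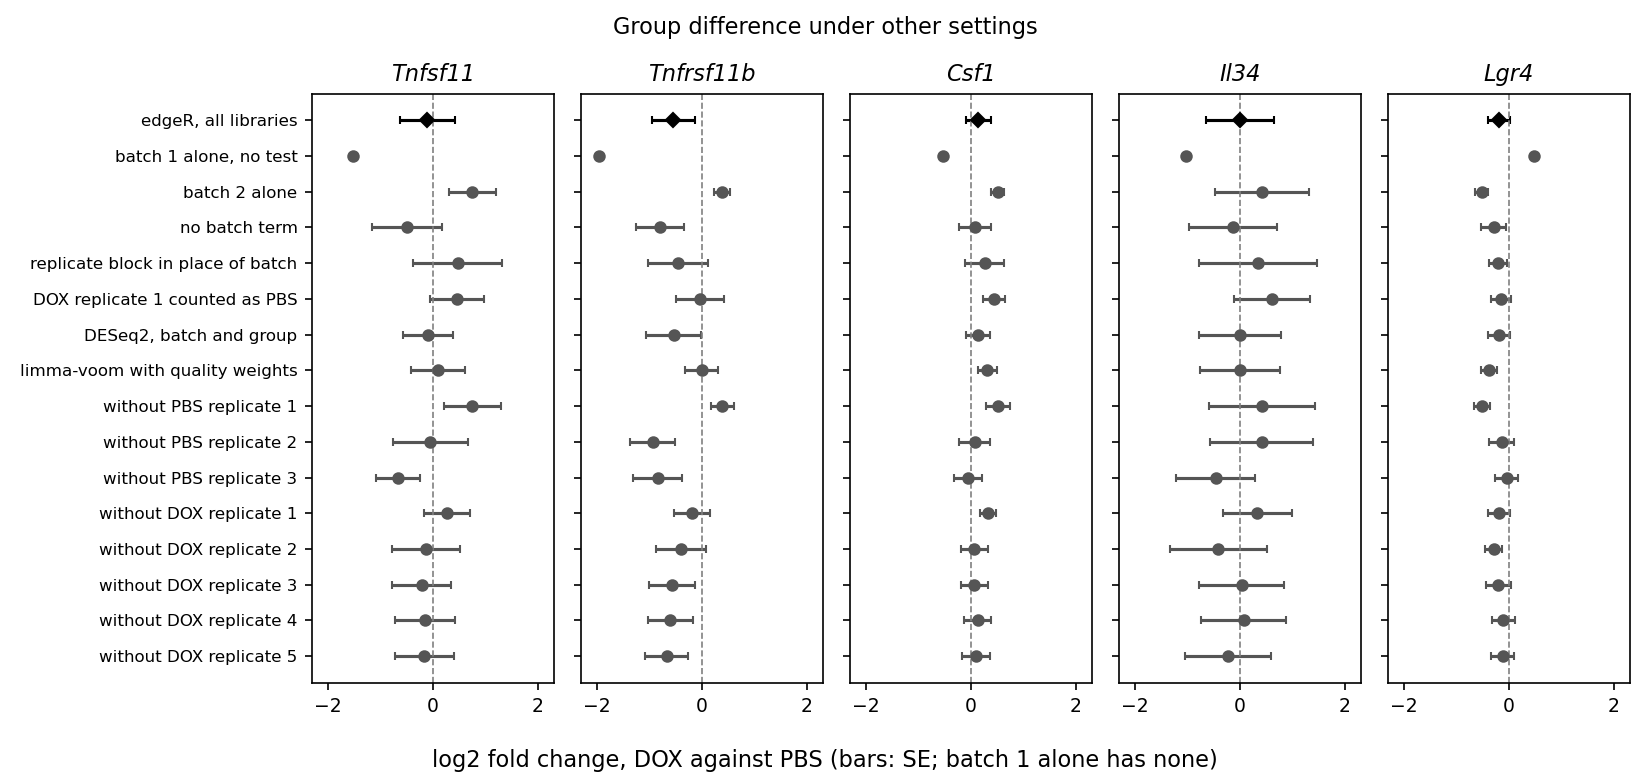
Log2 fold change of DOX against PBS for each member under the settings named at the left. Bars are standard errors, and batch 1 alone is a difference in mean log2 CPM with no error because it holds 1 PBS library. The sign in batch 1 is opposite to that in batch 2 for all 5 members.

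Tnfsf11 and Csf1 varied together from library to library, within batches as well as over all libraries. How many other gene pairs did so was not counted. Fbln1, Nsg1 and C1s1 had a higher r with Tnfsf11 than Csf1 had (0.99, 0.98 and 0.97 over the 8 libraries). Log2 CPM of Tnfsf11 and Csf1 had a Pearson r of 0.94 over the 8 libraries (exact permutation p = 0.000198; 0.00198 after Benjamini-Hochberg adjustment over the 10 pairs of members) and a Spearman rho of 0.93 (exact permutation p = 0.00223; 0.0223 adjusted). The r was 0.93 without PBS replicates 1 and 3, the libraries farthest from the median of Tnfsf11. Tnfsf11 and Il34 had an r of 0.93 and a rho of 0.90 (exact permutation p = 0.00233 and 0.00456; 0.0117 and 0.0228 adjusted), and an r of 0.89 without the same 2 libraries. Tnfsf11 and Tnfrsf11b had an r of 0.75 and a rho of 0.74 (exact permutation p = 0.0484 and 0.0458; 0.0806 and 0.0917 adjusted), which did not pass, with an r of 0.48 without PBS replicate 1. Tnfrsf11b and Csf1 had an r of 0.78 and a rho of 0.86 (exact permutation p = 0.00503 and 0.0107; 0.0126 and 0.0357 adjusted), with an r of 0.71 without PBS replicates 1 and 2. Csf1 and Il34 had an r of 0.89 and a rho of 0.79 (exact permutation p = 0.00417 and 0.0279; 0.0126 and 0.0698 adjusted), with an r of 0.64 without PBS replicate 1 and DOX replicate 2. Lgr4 had a negative r with each of the other 4, and none of these passed. For Tnfsf11 and Lgr4 the r was -0.72 over the 8 libraries and 0.12 without PBS replicates 1 and 3, so it rested on those libraries. With each gene centred on its batch mean and libraries permuted within batches (720 ways), a calculation added after the data were seen, Tnfsf11 and Csf1 had an r of 0.91 (exact permutation p = 0.00278; 0.0278 after adjustment over the 10 pairs). No other pair passed in that calculation. The r was 0.90 for Tnfsf11 and Il34, 0.84 for Csf1 and Il34 and 0.71 for Tnfrsf11b and Csf1 (exact permutation p = 0.0514, 0.0486 and 0.204; 0.171, 0.171 and 0.380 adjusted). Within batch 2 alone, with 5 libraries, no correlation was tested.

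**Figure D4:**
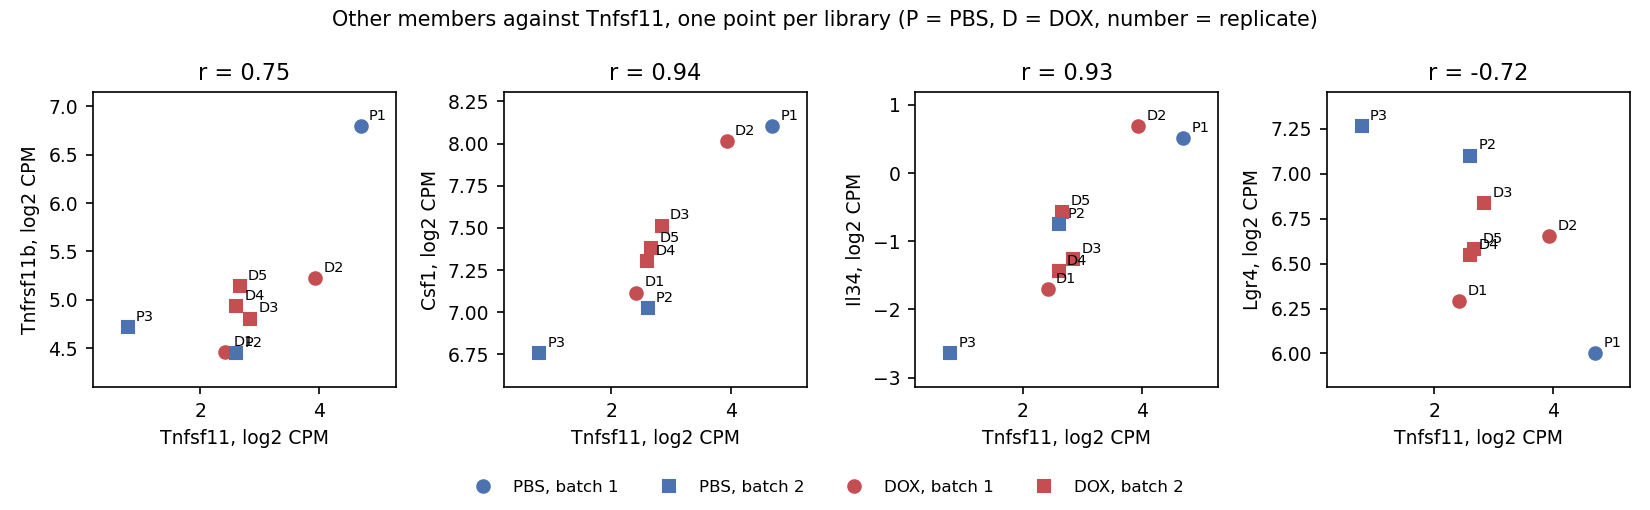
Log2 CPM of the other members against that of Tnfsf11, with 1 point per library, colored by group and shaped by batch. Csf1 (r = 0.94) and Il34 (r = 0.93) climb along the Tnfsf11 axis from PBS replicate 3 to PBS replicate 1 and DOX replicate 2, whereas Lgr4 (r = -0.72) is lowest in PBS replicate 1.

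The starts of Tnfsf11 and Csf1 are shown because these 2 genes had the highest r of the 10 pairs. RefSeq's promoter table for build GRCm38.p6, which is not the build the counts were made on, held 3 of the 5 members (Tnfsf11, Csf1 and Lgr4). The 250 bases before the annotated start are printed 5′ to 3′ on the strand of the gene. Tnfsf11 lies at chr14:78308044-78308293 and Csf1 at chr3:107760470-107760719, both on the minus strand. Capitals mark matches to 5 motifs searched on both strands: TATAAA (the TATA box), TGTGGT (Runx), TGACGT (cAMP response element), CTTTGAT (TCF/LEF) and CANNTG (E-box). No match overlapped another.
Tnfsf11: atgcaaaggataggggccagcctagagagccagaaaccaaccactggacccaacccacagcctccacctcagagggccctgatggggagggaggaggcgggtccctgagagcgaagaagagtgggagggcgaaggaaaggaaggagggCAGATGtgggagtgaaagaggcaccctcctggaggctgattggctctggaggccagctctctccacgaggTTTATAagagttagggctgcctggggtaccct
Csf1: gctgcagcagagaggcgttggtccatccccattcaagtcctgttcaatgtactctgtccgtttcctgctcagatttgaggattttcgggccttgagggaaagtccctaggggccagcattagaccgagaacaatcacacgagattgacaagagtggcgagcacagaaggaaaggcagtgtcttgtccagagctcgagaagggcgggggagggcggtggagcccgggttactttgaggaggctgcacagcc
The Tnfsf11 window held a TATAAA match on the opposite strand, at bases -32 to -27 counted from the start, and an E-box match at -102 to -97. The Csf1 and Lgr4 windows held no match to the 5 motifs. Of 32851 promoters in the table, cut to the same bases, 12.4% held TATAAA, 14.0% TGTGGT, 6.47% TGACGT, 3.21% CTTTGAT and 66.2% CANNTG. The Tnfsf11 and Csf1 windows thus shared none of these motifs.

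PBS replicate 1 and DOX replicate 2 were the highest 2 libraries for Tnfsf11, Tnfrsf11b, Csf1 and Il34, a pattern seen in 5.72% of the genes tested, and PBS replicate 1 was the highest of all for 3 members, as for 18.8% of genes. This pattern was picked after the values were seen. Markers of some other cell types were high in the same 2 libraries. The summed level of the 10 endothelial markers was 24.3 CPM in PBS replicate 1 and 19.8 CPM in DOX replicate 2, against 1.06 to 4.95 CPM in the other 6 libraries. For 9 of the 10 these were the highest 2 libraries, and 9 were at 0 in at least 1 library. Pecam1, the marker with the highest mean, stood at 4.45 CPM in the first and 2.34 CPM in the second, with 1.42 CPM as its maximum in the rest. The endothelial sum was next highest in DOX replicate 1 (4.95 CPM), where Tnfsf11 and Il34 were the lowest of the DOX libraries. The erythroid markers were also high in DOX replicate 1, at 109 CPM, beside 158 CPM in PBS replicate 1 and 40.0 CPM in DOX replicate 2, whereas Tnfsf11 in DOX replicate 1 was 5.29 CPM. The part of endothelial or blood cells in the member levels was not tested.

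Markers of reticular and adipogenic marrow stroma, cells that also make RANKL and Csf1, were highest in PBS replicate 1 (1023 CPM summed over 12 genes) and lowest in PBS replicate 3 (216 CPM), as Tnfsf11 was. They stood at 629 CPM in DOX replicate 2 and at 673 CPM in DOX replicate 1. Cxcl12, the chemokine that led this list, stood at 603 CPM in PBS replicate 1 and 73.4 CPM in PBS replicate 3. Osteocytes, cells embedded in bone, are a known source of RANKL. The sum of their markers, led by Dmp1, was 1665 CPM in PBS replicate 1, 1931 CPM in PBS replicate 3 and 2181 CPM in DOX replicate 2. Of the 10 genes in this list, only 2 were highest in PBS replicate 1 and DOX replicate 2, as Tnfsf11 was. These were Dmp1 and Mepe, named after their values were seen, at 893 and 1122 CPM for Dmp1 and at 71.4 and 68.7 CPM for Mepe. Phex, named likewise, was low in PBS replicate 1 (313 CPM) and high in PBS replicate 3 (857 CPM). Pdpn, Irx5 and Dkk1, also named likewise, were lowest in PBS replicate 1, at 10.4, 43.6 and 32.6 CPM. In PBS replicate 3 they stood at 33.3, 87.6 and 96.1 CPM. The osteoblast marker sum, carried by Col1a1 and Col1a2, ran from 201546 CPM in PBS replicate 1 to 537540 CPM in PBS replicate 3. These are the same 2 libraries that held the lowest and the highest Lgr4. Col1a1, Col1a2, Bglap, Bglap2 and Sp7 were lowest in PBS replicate 1, but Alpl, Runx2, Ibsp, Pth1r and Dmp1 were not. Spp1, named after its values were seen, was highest in PBS replicate 1 (22035 CPM) and stood at 4277 CPM in PBS replicate 3. The part of these cell types in the member levels was not tested.

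**Figure D5:**
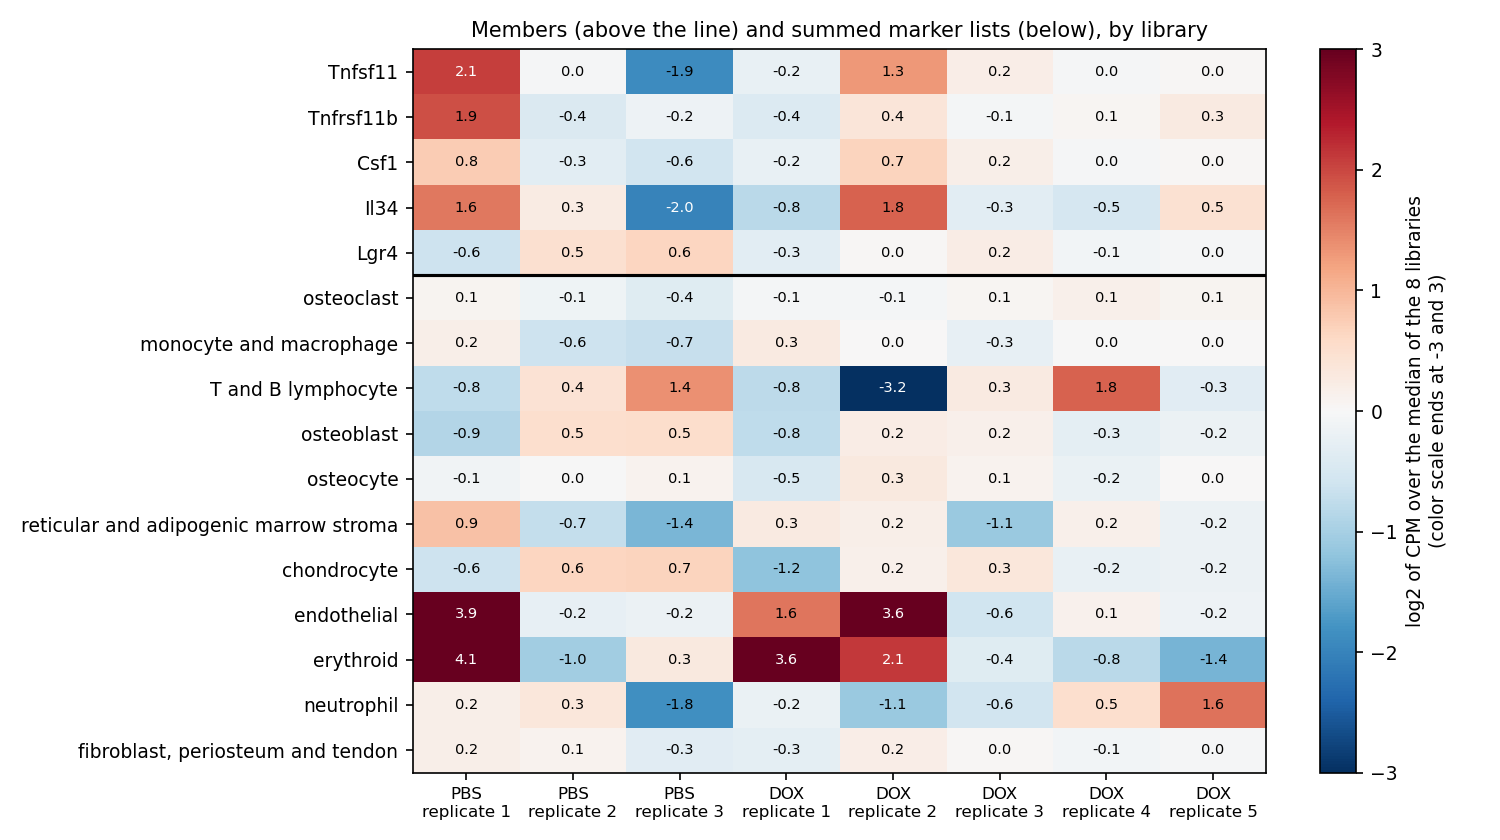
Log2 of each member's CPM (above the line) and of each summed marker list (below the line) over its median of the 8 libraries. Endothelial markers stand 3.9 above their median in PBS replicate 1 and 3.6 above it in DOX replicate 2, the 2 libraries in which Tnfsf11 and Il34 also stand more than 1 above theirs. In DOX replicate 1 endothelial markers stand 1.6 above their median, and Tnfsf11 and Il34 stand below theirs.

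Tnfrsf11a, which encodes the RANKL receptor RANK, had 9 counts in DOX replicate 2, 5 in DOX replicate 5 and 0 in the other 6 libraries, where 0 counts allow up to 3 counts, or 0.0561 to 0.0851 CPM depending on the library. Csf1r, the receptor of Csf1 and Il34, stood at 1.51, 1.51 and 0.710 CPM in PBS replicates 1 to 3 and at 0.861, 1.12, 1.26, 0.623 and 1.09 CPM in DOX replicates 1 to 5. The groups overlapped, and its log2 fold change was -0.33 ± 0.45 (SE; adjusted p = 0.998 in edgeR). Of the 12 osteoclast markers 9 were in the table, 4 were higher and 5 lower in DOX, and none passed. Their sum ran from 342 to 467 CPM in PBS and from 427 to 489 CPM in DOX and was carried by Ctsk, which encodes the protease cathepsin K, while Oscar and Atp6v0d2 were at 0 in at least 1 library. Of the 9, 5 were highest in PBS replicate 1, but only 2 had PBS replicate 1 and DOX replicate 2 as their highest libraries. Those 2 were Mmp9 and Itgb3, named after their values were seen. Mmp9 stood at 22.7 and 11.6 CPM there (at most 5.70 elsewhere) and Itgb3 at 46.2 and 26.9 CPM (at most 22.8 elsewhere). Ctsk was highest in DOX replicate 4 (416 CPM) and stood at 315 CPM in DOX replicate 2. The part of osteoclasts in the member levels was not tested. The monocyte and macrophage markers summed to between 4.88 and 9.57 CPM, led by Cd14, with 6 of 10 at 0 in some library. The T and B lymphocyte markers, for cells that can also make RANKL, summed to between 0.547 and 16.8 CPM, led by Cd79a. The T and B lymphocyte sum was lowest in DOX replicate 2, where Tnfsf11 was the second highest. Of its 9 genes in the table, 1 had PBS replicate 1 and DOX replicate 2 as its highest libraries. That gene, named after its values were seen, was the T cell receptor gene Trac (0.336 and 0.248 CPM, at most 0.242 elsewhere). The part of lymphocytes in the member levels was not tested.

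The remaining marker lists varied as follows. Neutrophil markers, led by Mpo, summed to 11.9 to 53.6 CPM in PBS and 19.7 to 132 CPM in DOX. Fibroblast, periosteum and tendon markers, led by Postn, summed to 1324 CPM in PBS replicate 1 and 1338 CPM in DOX replicate 2, their highest 2 libraries. Their lowest sum was 923 CPM in PBS replicate 3, and these are the same libraries as for Tnfsf11 and Csf1. The sum includes Ctsk, which is also an osteoclast marker. Of the 12 genes listed, only 2 had PBS replicate 1 and DOX replicate 2 as their highest libraries, and 6 were lowest in PBS replicate 3. Pdgfra, Scx, Mkx and Tnmd, named after their values were seen, were lowest in PBS replicate 1, at 187, 5.10, 9.53 and 2.97 CPM. Postn itself, which encodes the matrix protein periostin, stood at 768 CPM in PBS replicate 1, 664 CPM in DOX replicate 2 and 273 CPM in PBS replicate 3. The part of these cells in the member levels was not tested. Chondrocyte markers, led by Col2a1, summed to 2984 CPM in PBS replicate 1 and up to 7231 CPM in PBS replicate 3, although 6 of the 10 in the table, Col2a1 not among them, were highest in PBS replicate 1. Hbb-bs, a beta-globin gene, led the erythroid markers at 55.9 CPM in PBS replicate 1.

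Other genes of the pathway were taken from lists of 4 to 30 genes, and in each list 0 members passed in either direction in edgeR, as 0 genes (0%) did overall. Among all genes tested, 8798 had a positive and 7749 a negative log2 fold change, with a median of 0.02. Directions within the lists were not tested. Among 3 tested receptor genes 1 had a positive and 2 a negative log2 fold change, and the median was -0.33. Ptprz1, a phosphatase that also binds interleukin-34, differed by 0.06 ± 0.21 (SE). Sdc1, a syndecan that binds it too, differed by -0.42 ± 0.34 (SE), and it was highest in PBS replicate 1 (80.7 CPM), where Csf1 and Tnfsf11 were. The shedding proteases of RANKL, Mmp14, Adam10 and Adam17, were all lower in DOX with a median of -0.18, and Adam10 had the smallest p (-0.28 ± 0.21, SE). Tnfsf10, which encodes TRAIL, the other ligand of osteoprotegerin, was in the table but under the filter on low counts.

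Among the R-spondins and partners of Lgr4, 2 of 7 tested genes had a positive and 5 a negative fold change (median -0.11). Lgr5, a related R-spondin receptor, had 0, 4 and 6 counts in PBS replicates 1 to 3 and 13, 1, 20, 18 and 16 counts in DOX replicates 1 to 5, so 4 of the 5 DOX counts exceeded the PBS maximum (unadjusted p = 0.0800 in edgeR). Rnf43, a ubiquitin ligase that R-spondins counteract, differed by -0.61 ± 0.65 (SE). Of the 18 tested receptors for hormones and cytokines that act on RANKL and osteoprotegerin, 6 lay higher in DOX and 12 lower (median -0.14). Il1r1, the interleukin-1 receptor, differed by -0.36 ± 0.23 (SE), and Il6ra, which binds interleukin-6, stayed under 0.4 CPM in all libraries. Of the 17 transcriptional regulators of Tnfsf11 or Tnfrsf11b 7 lay higher in DOX and 10 lower (median -0.09). Fos, an immediate early gene of the AP-1 complex, averaged 684 ± 156 CPM in the PBS libraries (SD, n = 3) against 975 ± 348 CPM in the DOX libraries (SD, n = 5), a log2 fold change of 0.43 ± 0.18 (SE; adjusted p = 0.998 in edgeR). Rela, a subunit of NF-kB, differed by -0.24 ± 0.14 (SE).

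Of 26 tested factors by which osteoblasts act on osteoclasts, 8 lay higher in DOX and 18 lower (median -0.11), and 4 had an unadjusted p under 0.05, beside 3.65% of all genes tested. Il6, a cytokine that raises RANKL in osteoblasts, had 21, 0 and 31 counts in PBS replicates 1 to 3 and 0, 0, 1, 0 and 1 counts in DOX replicates 1 to 5. PBS replicate 2 was at 0, so the groups overlapped (unadjusted p = 0.00646 and adjusted p = 0.998 in edgeR). Wnt4, a Wnt ligand, averaged 36.8 ± 8.61 CPM in the PBS libraries (SD, n = 3) against 53.3 ± 7.58 CPM in the DOX libraries (SD, n = 5), with 4 of the latter 5 above the PBS range and a log2 fold change of 0.54 ± 0.18 (SE; adjusted p = 0.998 in edgeR). The other 2, named after their values were seen, were Ptgs2 and Efnb2. Ptgs2, the inducible cyclooxygenase whose product prostaglandin E raises RANKL, averaged 0.589 ± 0.262 CPM in the PBS libraries (SD, n = 3) against 1.68 ± 0.818 CPM in the DOX libraries (SD, n = 5). For Ptgs2 every DOX library lay above every PBS library, as for 1.29% of all genes tested and for 1 of the 26 factors. The gap was narrow, from 0.879 CPM as the PBS maximum to 0.921 CPM as the DOX minimum, and the gene had 434 counts in all. Its log2 fold change was 1.53 ± 0.54 (SE; adjusted p = 0.998 in edgeR). Efnb2, which encodes the membrane ligand ephrin-B2, had a log2 fold change of -0.54 ± 0.23 (SE; adjusted p = 0.998 in edgeR).

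The genes most like each member over the 8 libraries were taken from 10392 genes by Pearson r of log2 CPM, as a description. For Tnfsf11 they were Fbln1 (r = 0.99), Nsg1 (0.98) and C1s1 (0.97). For Tnfrsf11b they were Cmtm3 (r = 0.98), Ahnak (0.97), Rnf125 (0.97) and Cav2 (0.97), and without PBS replicate 1 their r was between 0.80 and 0.91. For Csf1 they were Il4ra (r = 0.97), Slc43a3 (0.97), Rras (0.96) and Itgbl1 (0.96). For Il34 they were Pla2g15 (r = 0.99), Col8a2 (0.97), Esr1 (0.96) and Lama4 (0.95). For Lgr4 they were Pcsk5 and Rad23b and Gnai1 (r between 0.99 and 1.00) and Cbfb (0.99). Fbln1, a matrix glycoprotein gene, stood at 18.5 CPM in PBS replicate 1 and between 1.25 and 14.8 CPM elsewhere, a profile like that of Tnfsf11. Pcsk5, which encodes a proprotein convertase, stood at 91.7 CPM in PBS replicate 1 and between 117 and 301 CPM elsewhere, as Lgr4 was lowest in that library.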

How the data were processed

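Messenger RNA of sorted GFP-positive osteoblasts was measured by RNA-seq with full-length cDNA amplified by PCR, per the labels' protocols. The authors deposited raw read counts per gene symbol, 1 column per library. The submitters' processing notes name build GRCm39 and, with no order, the aligner STAR (2.7.9a), the counter featureCounts (2.0.1), SAMtools (1.17), the trimmer Trim Galore (0.6.6) and for quality reports MultiQC (1.7) and FastQC (0.11.5). Not given in the sources used here are the strand setting, how shared reads were handled and the annotation. Without a stated strand setting, reads of overlapping or antisense genes cannot be told apart. The smallest total of a gene was 10 counts, so low totals had been removed. No molecular identifiers are named, so counting intervals (95%, exact) and limits for 0 counts cover counting error only.

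Groups came from the titles, which call the libraries biological replicates; nothing else says that they came from separate mice. Counts were tested in R 4.3.3 with edgeR 4.0.16 (TMM, filterByExpr on the design, quasi-likelihood F test, batch and group as terms, two-sided, Benjamini-Hochberg adjustment over all genes tested, threshold 0.05). Standard errors are the absolute fold change divided by the square root of F. DESeq2 1.42.0 and limma 3.58.1 were alternatives, beside other scalings, filters, terms and left-out libraries. On data simulated for 16547 genes, the DOX against PBS test called 75.3% of genes changed by 2 on the log2 scale and 94.4% of those changed by 4. The simulation held no batch difference and no outlying library, and gave each gene the spread typical of its level. The SD of log2 CPM of Tnfsf11 exceeded that of 83.9% of genes tested, so these shares need not hold for it. Log2 CPM carried a prior of 2 counts, and ratios a pseudocount of 0.5. Exon lengths came from GENCODE M21 (GRCm38), not the annotation the counts were made on.

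The members and gene lists were chosen with earlier results of these data known. The genes named are the members, Tnfrsf11a and Csf1r, the gene of smallest p in each direction of each pathway list, the 4 genes most like each member (mean log2 CPM of at least 1, standard symbol; 1 of these is not reported here) and the marker of highest mean in each marker list. Figures used matplotlib 3.10.9 (Python 3.11.15).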

Additional observations from a re-analysis of the deposited data

Results flagged for a closer look

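In 2 of 6 quantities examined over the 5 DOX libraries, DOX replicate 2 stood apart from the others by Dixon's test at the 95% level, which chance passes in about 1 of 20 groups. The test was run on values that were not log-transformed, and the share of all genes that it flags here was not computed. Tnfsf11 stood at 15.2 CPM there, with a gap to the next library of 0.816 of the group's range (critical value 0.710). Il34 stood at 1.57 CPM, with a gap of 0.718 of the range. In log2 CPM it stood at 0.69 there, at -0.57 in DOX replicate 5, the next library, and at -1.70 in DOX replicate 1, the lowest. That gap is smaller for its range, so the flag for Il34 depends on the scale. The PBS group, with 3 libraries, was too small for this test. The endothelial markers summed to 19.8 CPM in DOX replicate 2 and to between 1.06 and 4.95 CPM in the other DOX libraries. They were next highest in DOX replicate 1 (4.95 CPM), where Tnfsf11 and Il34 were the lowest of the DOX libraries (5.29 and 0.260 CPM). The part of endothelial cells in both genes was not tested.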

How the results depend on the processing

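EdgeR and limma-voom called 0 genes between DOX and PBS under every setting run, leaving out each library included (0 to 0), and DESeq2 called 26. No member passed under any setting. Tnfsf11 turned positive with limma-voom (0.10), under the replicate block (0.47), in batch 2 alone (0.75), with DOX replicate 1 counted as PBS (0.46) and with neither PBS replicate 1 nor DOX replicate 1 (0.75). It ran from -0.67 to 0.75 when 1 library was left out. Tnfrsf11b turned positive in batch 2 alone (0.39) and with neither of those 2 libraries (0.38), and ran from -0.94 to 0.39 when 1 library was left out. With limma-voom it was -0.0040, and Lgr4 was -0.38 (unadjusted p = 0.0235, adjusted p = 0.517). Csf1 was -0.54 in batch 1 alone and ran from -0.052 to 0.51. Il34 turned negative with limma-voom (-0.00288), a stricter filter (-0.00869), no batch term (-0.13) and in batch 1 alone (-1.02), and ran from -0.46 to 0.42. Lgr4 was 0.47 in batch 1 alone and ran from -0.52 to -0.040. The ratio of Tnfsf11 to Tnfrsf11b differed by -0.052 to 1.00 when 1 library was left out. For the interaction of batch and group DESeq2 called 269 genes, and edgeR called 0 to 85 when 1 library was left out, 36 without DOX replicate 1, 85 without DOX replicate 2 and 1 without DOX replicate 4; PBS replicate 1 could not be left out, since batch 1 then has no PBS library. With DOX replicate 1 counted as PBS the Il34 interaction was -0.52. Of the 4 pairs of members that passed in Pearson's r, 3 did not when libraries were permuted within batches. The cause of these changes was not tested.

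Whether replicate numbers pair the libraries was not settled. Deviations from the group means correlated by 0.24, -0.04 and 0.23 for numbers 1 to 3. PBS replicates 1 and 3 correlated best with the DOX library of the same number, and PBS replicate 2 with DOX replicate 3. The deviations were not centred on batch means. Same-numbered libraries share a batch for numbers 1 and 3 but not for number 2, so pairing and batch cannot be told apart. With the replicate number as a block edgeR called 0 genes, and the log2 fold change was -0.45 for Tnfrsf11b, 0.26 for Csf1, 0.34 for Il34 and -0.20 for Lgr4. The ratio differed by 0.86 over the pairs 1 to 3. With 3 PBS libraries and this spread between them, the 95% intervals in the report hold only for the edgeR fit to all libraries. They do not cover the choice of libraries. For Tnfrsf11b the interval ended at 0.35, and the estimate without PBS replicate 1 was 0.39.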
